A study of Mus musculus with 12 samples.

Results

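The collagen genes were taken as every gene of the expression table whose name had the form Col, a number, the letter a and a number. This rule found 44 genes among the 55385 genes listed, and 38 of them had a mean level of at least 0.1 FPKM (fragments per kilobase of transcript and scaled to the mapped fragments, a read level corrected for gene length and library size) over the 12 libraries. These 38 were tested together with all 21393 genes that reached the same mean. RNA came from the brains of wild-type male C57/BL6J mice, bought at 8 weeks of age, with 3 mice in each of 4 groups and 1 library per mouse. The C_W mice were controls given water, the C_O mice were controls given krill oil, the MS_W mice received chronic unpredicted mild stress (CUMS) and water, and the MS_O mice received CUMS and krill oil. By the study's methods, stress lasted 4 weeks, krill oil was given into the stomach at 200 mg per kg per day for 5 weeks, and the control mice were given water and not another oil. The brains were perfused with saline before collection, and polyadenylated RNA was sequenced from each mouse separately.

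Collagens are proteins built from 3 chains that wind into a triple helix, and every turn of that helix needs a glycine. Fibrillar collagens form the banded fibres of connective tissue, and FACIT collagens sit on the surface of those fibres. Type IV collagen forms the sheet of basement membranes, type VI forms beaded filaments, type VII anchors epithelia, type VIII forms hexagonal lattices, multiplexins lie in basement membrane zones, and transmembrane collagens span the cell membrane. In the brain, collagen transcripts are known mainly from the meninges and the cells around blood vessels, with some members made by neurons and glia.

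The coding sequence shows what the members share beyond their names. In GENCODE release vM21 (GRCm38), the longest coding transcripts of the 44 members held 2005 coding exons, and 469 of these (23.4%) were exactly 54 bases long. Among the 21798 protein-coding genes that were no member the share was 0.444%. It was 47% in the 11 fibrillar members and 25.2% in the 9 FACIT members, but 4.05% in the 6 type IV members and 0 in the 3 members of the hexagonal network class, which have 6 coding exons in all. A coding exon of 54 bases holds 18 codons, or 6 repeats of glycine followed by any 2 residues. Such an exon from near the middle of the coding region is printed for 4 fibrillar members described below, with the codons that begin with GG, which encode glycine, in capitals.

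Col3a1: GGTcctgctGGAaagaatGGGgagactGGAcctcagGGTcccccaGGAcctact
Col1a2: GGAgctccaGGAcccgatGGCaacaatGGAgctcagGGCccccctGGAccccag
Col5a1: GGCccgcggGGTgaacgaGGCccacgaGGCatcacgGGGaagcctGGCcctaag
Col24a1: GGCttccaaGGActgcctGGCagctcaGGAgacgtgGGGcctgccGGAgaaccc

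On GRCm38 these exons lie on the plus strand at chr1:45334761-45334814 (Col3a1), chr6:4524117-4524170 (Col1a2), chr2:27995861-27995914 (Col5a1) and chr3:145447635-145447688 (Col24a1). Each began with a glycine codon and repeated it after every 2 other codons, 6 in all.

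RefSeq promoter windows of 300 bases (250 before and 50 after the start site, GRCm38.p6) were found for 35 of the 44 members. The GC box GGGCGG, read on both strands, was present in 22 of the 35 windows (62.9%) and in 35.7% of all 32851 windows, and the median GC content was 60% in the members against 52.7% in all windows. CCAAT was present in 12 member windows (34.3%) against 37.4% of all, and TATAAA in 5 (14.3%) against 13.6%. The bases before the start sites of Col3a1 and Col5a1 are shown because these fibrillar genes differed in opposite directions between the water groups. Capitals mark the motifs, which do not overlap each other, and a match is a description of the letters only.

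Col3a1: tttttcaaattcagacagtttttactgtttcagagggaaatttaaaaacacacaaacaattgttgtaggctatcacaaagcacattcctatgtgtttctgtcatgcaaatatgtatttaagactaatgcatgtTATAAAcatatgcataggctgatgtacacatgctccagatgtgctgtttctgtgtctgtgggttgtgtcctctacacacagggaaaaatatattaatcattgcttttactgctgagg
Col5a1: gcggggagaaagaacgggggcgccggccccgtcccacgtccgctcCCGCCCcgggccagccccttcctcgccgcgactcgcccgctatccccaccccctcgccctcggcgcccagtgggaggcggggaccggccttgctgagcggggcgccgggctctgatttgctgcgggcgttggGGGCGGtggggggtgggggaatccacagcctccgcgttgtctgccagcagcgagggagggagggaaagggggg

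The Col3a1 stretch lies at chr1:45311288-45311537 and the Col5a1 stretch at chr2:27886175-27886424, both on the plus strand. The former held TATAAA once, starting 117 bases before the start site, and the latter held the GC box on each strand, starting 205 and 73 bases before it.

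Most collagen genes were expressed at low levels in these brains. The median of the 38 mean levels was 0.513 FPKM, 12 members had a mean above 1 FPKM and 2 were above 5 FPKM. Col6a1, a chain of type VI collagen, was the highest at 15.2 FPKM and made up 28.7% of the summed level of all members (52.9 FPKM). The type IV chains Col4a2 and Col4a1 followed at 5.49 and 3.84 FPKM, then the FACIT chain Col9a3 at 3.0 FPKM, the transmembrane Col23a1 at 2.43 FPKM, Col9a2 at 2.25 FPKM, Col6a2 at 1.74 FPKM and the fibrillar Col11a2 at 1.72 FPKM. Just inside the limit of 0.1 FPKM were Col2a1 (0.118), Col14a1 (0.136) and Col4a6 (0.142). The 6 members below it were Col9a1 (0.0958), Col4a4 (0.0956), Col28a1 (0.0888), Col6a5 (0.0663), Col4a3 (0.0582) and Col6a6 (0.0349 FPKM). By class, the type VI, VII and related members held 33.9% of the summed level, the type IV members 18.9%, the FACIT members 17.4% and the fibrillar members 16%.

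**Figure D1:**
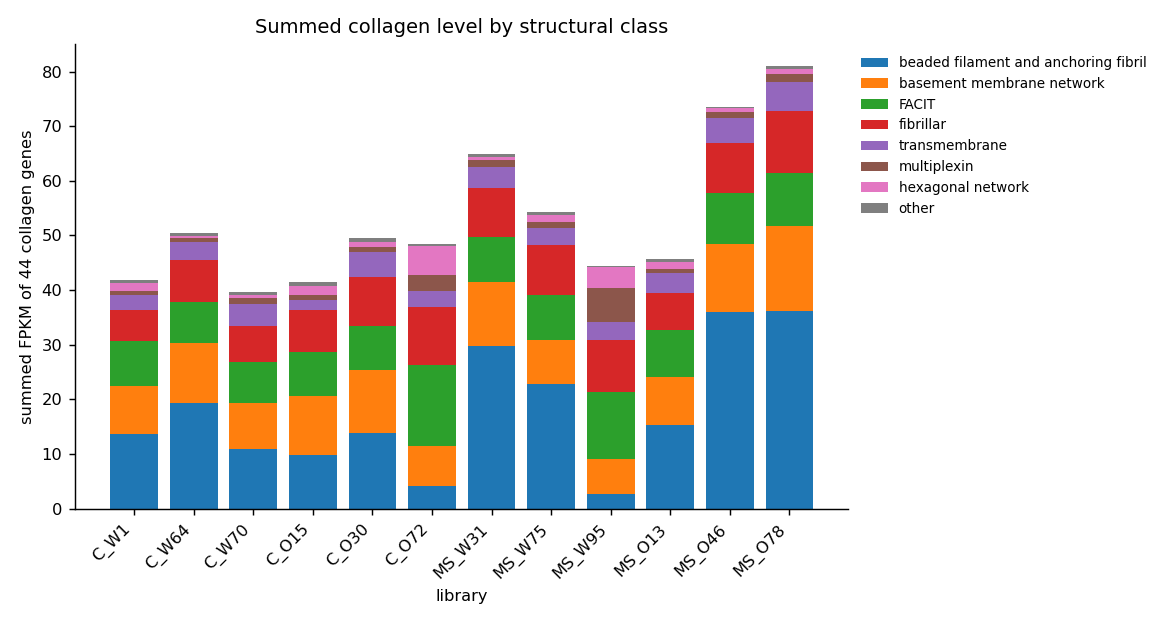
Summed FPKM of the 44 collagen genes (vertical axis) in each of the 12 libraries (horizontal axis), stacked by structural class. The sum ran from 39.6 in C_W70 to 80.9 in MS_O78, and the class that holds Col6a1 ran from 2.66 in MS_W95 to 36.2 in MS_O78.

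C_O72 and MS_W95 differed from the remaining 10 libraries in regional markers. The 8 cerebellum markers summed to 302 and 1040 FPKM in them against 28.0 to 44.9 FPKM in the other 10 libraries, the 10 hindbrain and spinal cord markers, of which 9 passed the level limit, to 80.8 and 29.8 FPKM against at most 0.0866 FPKM, and the 8 cortex markers to 36.4 and 49.0 FPKM against at least 136 FPKM. Of the 38 members, 10 were higher in both libraries than in all the others (Col9a3, Col9a2, Col1a2, Col18a1, Col8a2, Col8a1, Col4a5, Col5a3, Col17a1 and Col4a6) and 5 were lower in both (Col6a1, Col4a2, Col6a2, Col24a1 and Col6a4). Over all tested genes these shares were 16.3% and 11.7%. Estimated counts summed to between 50912906 and 75678721 per library, of which the collagen genes held 18296 to 31518. Every comparison below is therefore also given without C_O72 and MS_W95 where that changes it, and the part of tissue make-up in the collagen differences was not tested.

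The levels by library showed where individual members departed from their group. Col6a1 stood at 11.7, 16.7 and 8.4 FPKM in C_W, 7.36, 11.4 and 2.09 FPKM in C_O, 26.1, 20.2 and 1.37 FPKM in MS_W and 12.6, 32.1 and 32.2 FPKM in MS_O. The low values in C_O and MS_W were those of C_O72 and MS_W95, so that the MS_W libraries spanned nearly the whole range of the study. Col6a2, its partner chain, was also lowest in these 2 libraries, with 1.4, 1.74 and 1.39 FPKM in C_W, 1.59, 1.83 and 1.22 in C_O, 2.34, 1.91 and 0.512 in MS_W, and 1.68, 2.71 and 2.52 in MS_O. Col4a2 ran from 2.86 FPKM in MS_W95 to 8.45 FPKM in MS_O78, with 4.83, 5.94 and 5.16 in C_W, 6.28, 6.31 and 3.07 in C_O, 6.08, 5.26 and 2.86 in MS_W, and 5.11, 6.52 and 8.45 in MS_O. All 4 groups overlapped for both Col6a2 and Col4a2.

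The FACIT chains Col9a3 and Col9a2 of type IX collagen, a cartilage collagen in the body, were highest in C_O72 and MS_W95. The third chain, Col9a1, lay below the level limit and was highest in MS_O78 (0.169 FPKM). Col9a3 was at 2.72, 1.54 and 1.37 FPKM in C_W, 2.48, 1.58 and 7.4 FPKM in C_O, 2.4, 2.27 and 6.44 FPKM in MS_W, and 2.5, 2.73 and 2.62 FPKM in MS_O. C_O72 and MS_W95 stood above the other 10 libraries, which reached at most 2.73 FPKM. Col9a2 was at 1.79, 1.24 and 1.67 FPKM in C_W, 1.63, 2.23 and 4.01 FPKM in C_O, 2.18, 2.59 and 2.76 FPKM in MS_W, and 1.84, 2.46 and 2.63 FPKM in MS_O, again highest in these 2 libraries. The multiplexin Col18a1, the source of the fragment endostatin, reached 2.55 FPKM in C_O72 and 5.51 FPKM in MS_W95, against 0.331 to 0.876 FPKM elsewhere. The transmembrane Col23a1 did not follow them, with 1.94, 2.31 and 1.26 FPKM in C_W, 0.945, 3.56 and 1.93 FPKM in C_O, 2.67, 2.3 and 1.87 FPKM in MS_W, and 2.13, 3.76 and 4.48 FPKM in MS_O. Its lowest library was C_O15 and its highest MS_O78. Col11a2 was at 1.59, 1.57 and 1.62 FPKM in C_W, 1.82, 1.64 and 2.52 FPKM in C_O, 1.51, 1.91 and 1.26 FPKM in MS_W, and 1.91, 1.3 and 1.97 FPKM in MS_O, with the lowest value in MS_W95 and the highest in C_O72.

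**Figure D2:**
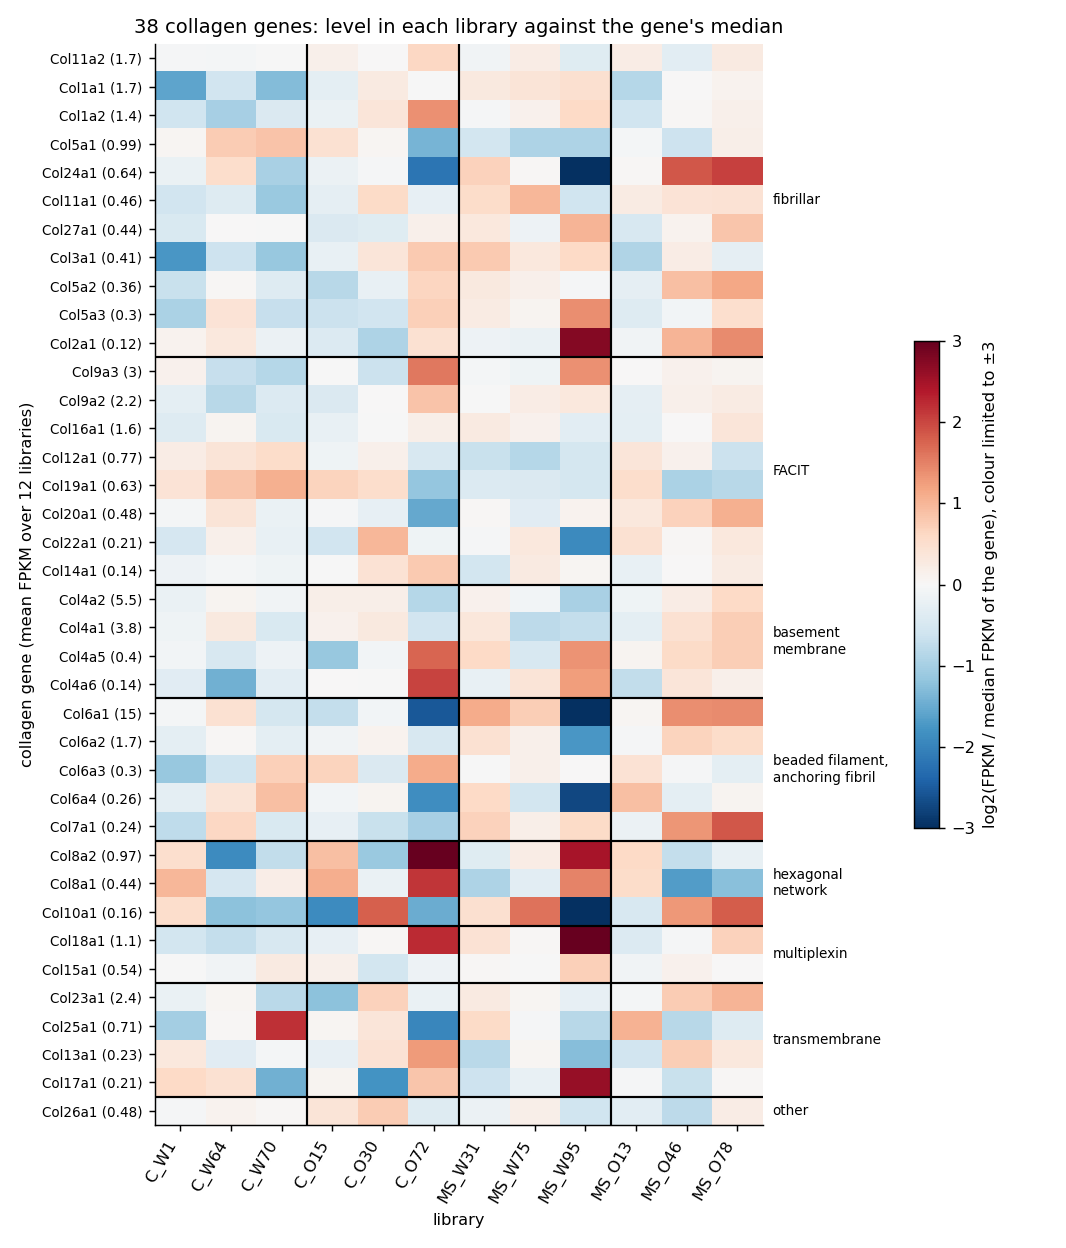
Heat map of the 38 collagen genes with a mean of at least 0.1 FPKM (rows, by class, mean FPKM in brackets) in the 12 libraries (columns); colour gives log2 of the FPKM over the gene's median over the 12 libraries. C_O72, MS_W95 and MS_O78 held the highest level of 12, 7 and 10 members (31.6%, 18.4% and 26.3%), against 18.7%, 19.2% and 9.05% of all tested genes.

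MS_O78 held the highest level of 10 of the 38 members (26.3%), against 9.05% of all tested genes, and the lowest of none. C_W1, C_W64, C_O15 and MS_W31 were the highest library for no member, against 2.75%, 4.99%, 5.38% and 6.42% of all tested genes. MS_W95 held the lowest level of 9 members (23.7%), against 9.65% of all tested genes.

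The C_W vs. MS_W comparison asks what stress did in mice given water. By the criteria of the study's methods (unadjusted p under 0.05 and group means more than 2-fold apart), here with limma on log2(FPKM + 1), 6 of the 38 collagen genes differed (15.8%), against 4.59% of all tested genes. Col1a1, Col3a1 and Col11a1 were higher in MS_W, against 2.5% of all tested genes, and Col5a1, Col12a1 and Col19a1 were lower, against 2.1%. None of the 38 passed a Benjamini-Hochberg adjusted p of 0.05 over all tested genes, and 1 of the 21393 genes (0.00467%) did. Estimated count totals did not overlap between these groups (69768244 to 75678721 in C_W, 51748181 to 61608502 in MS_W). Separately, an ordinary linear model was fitted to these groups alone. Its covariate was the sum of log2(FPKM + 1) over all but the highest genes of each library, not the count total. In that model the differences of Col5a1, Col12a1, Col19a1 and Col11a1 took the opposite sign. In bulk brain RNA, fewer cells of a type and less RNA per cell cannot be told apart.

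Col1a1, the main chain of type I collagen (chr11:94936224-94953042, mm10), stood at 0.607, 1.22 and 0.738 FPKM in C_W and at 2.21, 2.36 and 2.55 FPKM in MS_W. The groups did not overlap, and the means were 0.856 ± 0.324 and 2.37 ± 0.171 FPKM (SD, n = 3 each), a 2.77-fold difference. On the log2(FPKM + 1) scale the limma difference was 0.87 (SE 0.176, unadjusted p = 0.000505, adjusted p = 0.184). Col3a1, the chain of type III collagen that accompanies type I in vessels and meninges (chr1:45311538-45349706), was at 0.119, 0.258 and 0.181 FPKM in C_W and 0.682, 0.494 and 0.606 FPKM in MS_W. Its means of 0.186 ± 0.07 and 0.594 ± 0.0947 FPKM were 3.19-fold apart, again with no overlap (difference 0.43, SE 0.105, unadjusted p = 0.00217, adjusted p = 0.275 in limma).

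The partner chain of Col1a1 in type I collagen, Col1a2, was also higher in every MS_W library (1.23, 1.38 and 1.92 FPKM) than in every C_W library (0.838, 0.634 and 0.936 FPKM), but its 1.88-fold difference did not meet the criteria (difference 0.47, 95% interval -0.05 to 0.99). Col11a1, a minor fibrillar chain, was at 0.285, 0.327 and 0.196 FPKM in C_W and at 0.623, 0.855 and 0.284 FPKM in MS_W, where the lowest value was that of MS_W95 and the groups overlapped. Its difference of 0.31 (SE 0.13, limma unadjusted p = 0.0386, adjusted p = 0.459) was called in only 6 of 12 fits that each left out 1 library, and was lost without any of C_W1, C_W64, C_W70, MS_W31, MS_W75 or MS_O78.

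Col5a1, a chain of the type V collagen that starts fibrils (chr2:27886425-28039514), was lower in MS_W than in C_W. Its level was 1.04, 1.71 and 1.81 FPKM in C_W and 0.685, 0.525 and 0.53 FPKM in MS_W, without overlap, and the MS_W mean was 0.382 of the C_W mean (difference -0.66, SE 0.2, limma unadjusted p = 0.00773, adjusted p = 0.326). Its partner chain Col5a2 did not follow, with 0.199 to 0.325 FPKM in C_W and 0.311 to 0.388 FPKM in MS_W. The ratio of Col5a1 to Col5a2 was 5.23, 5.24 and 7.49 in C_W and 1.77, 1.48 and 1.7 in MS_W.

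The FACIT members Col12a1 and Col19a1 were the other members lower in MS_W. Col12a1, found on type I fibrils (chr9:79598991-79718720), was at 0.924, 1.04 and 1.17 FPKM in C_W and 0.502, 0.44 and 0.554 FPKM in MS_W (difference -0.45, SE 0.122, limma unadjusted p = 0.00409, adjusted p = 0.286). Col19a1, known from interneurons and muscle (chr1:24261890-24587472), was at 0.753, 1.01 and 1.18 FPKM in C_W and 0.428, 0.418 and 0.392 FPKM in MS_W (difference -0.48, SE 0.177, limma unadjusted p = 0.0203, adjusted p = 0.393). The groups of both genes did not overlap. Without C_W70 neither met the criteria, and Col12a1 did not without MS_W75 either.

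Over all 38 members, 9 showed no overlap of the C_W and MS_W libraries, against 24.6% of all tested genes. Of the 9, 6 were higher in MS_W (16.3% of all tested genes) and 3 were lower (8.22%). The median difference of the members was 0.08 on the log2(FPKM + 1) scale, against 0.06 over all tested genes. The 11 fibrillar members, with 3 higher and 1 lower by the criteria, had a median of 0.18. None of the 4 type IV, 5 beaded filament and anchoring fibril, 3 hexagonal network, 2 multiplexin or 4 transmembrane members tested met the criteria in limma, while edgeR called the multiplexin Col18a1 higher in MS_W. The same 6 members were called without C_O72 and MS_W95, against 5.81% of all tested genes, and there the smallest adjusted p among the members was 0.0938.

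Regional markers differed between the same groups. The 8 striatum markers summed to 90.8 to 179 FPKM in C_W and, in MS_W, to 688 and 977 FPKM in MS_W31 and MS_W75 and 147 FPKM in MS_W95, with 4 of 8 higher in MS_W by the criteria and 8 of 8 without C_O72 and MS_W95. The 8 hypothalamus markers summed to 3.11 to 14.1 FPKM in C_W and 12.1 to 129 FPKM in MS_W, with 5 of 8 higher. The 8 cortex markers summed to 340 to 393 FPKM in C_W and 49.0 to 144 FPKM in MS_W, with 4 of 8 lower. The 15 meningeal and perivascular fibroblast markers, all above the level limit, summed to 34.6 to 45 FPKM in C_W and 48.6 to 62.2 FPKM in MS_W, and none met the criteria. Of the 15, 14 had a difference above 0, with a median of 0.23 against 0.06 over all tested genes. Without overlap, 5 of them were higher in MS_W, against 16.3% of all tested genes, and 0 were lower. The 5 erythrocyte markers summed to 159 to 213 FPKM in C_W and to 31.3, 12.7 and 412 FPKM in MS_W31, MS_W75 and MS_W95, with none called in the fit of 12 libraries and 5 of 5 lower in MS_W without C_O72 and MS_W95. The part of each of these in the collagen differences was not tested.

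**Figure D3:**
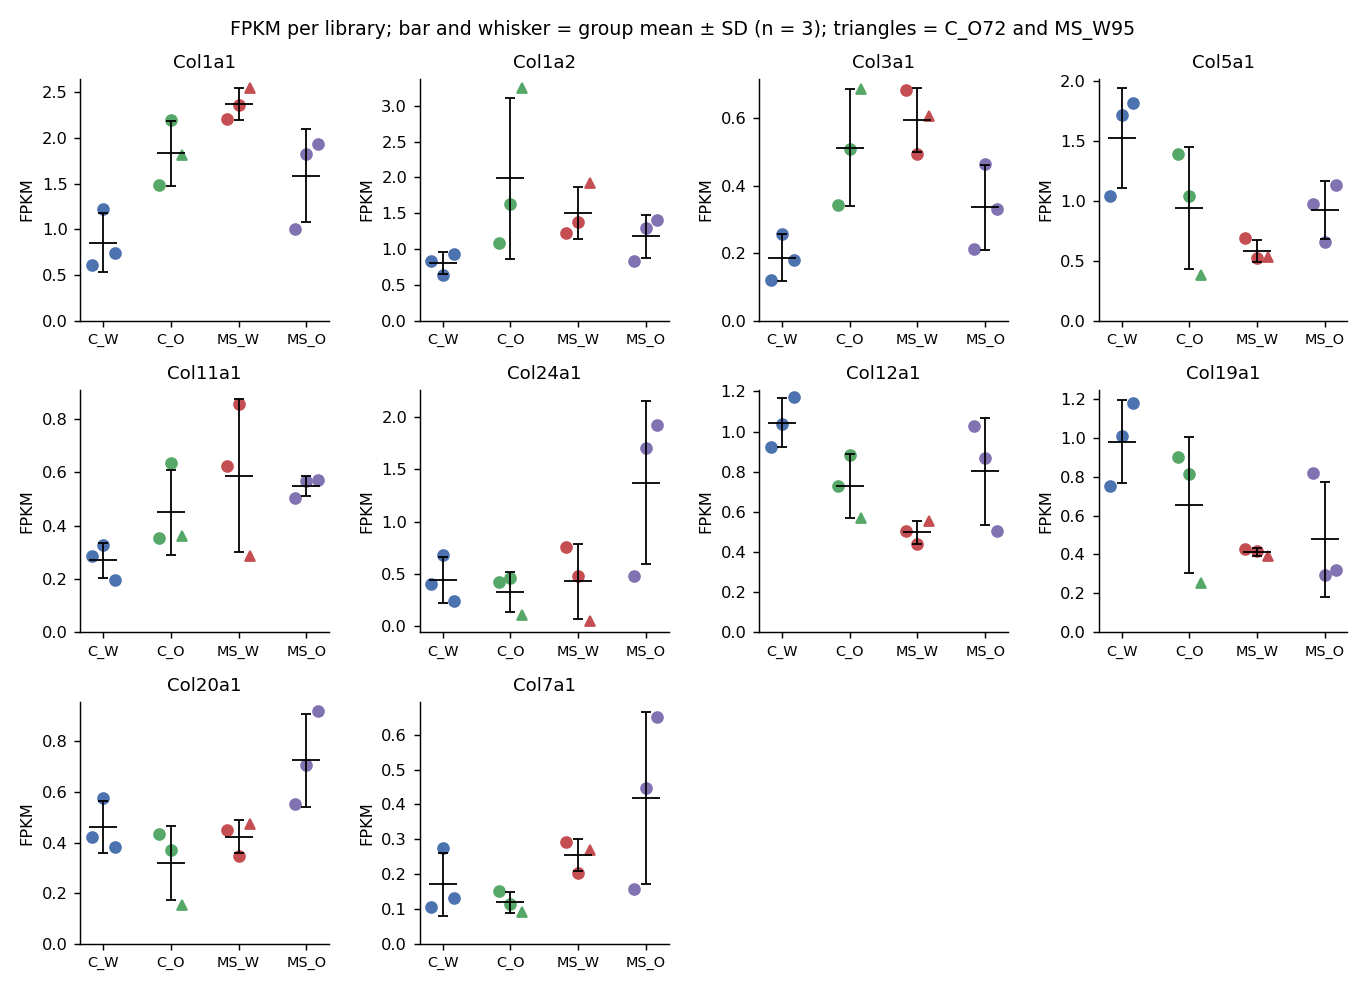
FPKM (vertical axes, from 0) of the 10 collagen genes that met the criteria in a comparison, by group; points are libraries, triangles are C_O72 and MS_W95, and bars with whiskers are group means ± SD (n = 3). The C_W points of Col1a1 and Col3a1 lie below all C_O and MS_W points, while those of Col12a1 lie above them.

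The C_W vs. C_O comparison asks what krill oil did without stress, and it shares the C_W libraries with the comparison above. By the criteria, 3 of the 38 members differed (7.89%), against 1.76% of all tested genes, and all 3 were fibrillar and higher in C_O (0.865% of all tested genes). They were Col1a1, Col1a2 and Col3a1. No gene of any kind passed the adjusted threshold in limma, while 760 of the 21393 (3.55%) had an unadjusted p under 0.05, and edgeR and DESeq2 on estimated counts called 4 and 5 members by the same criteria.

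Col1a1 was at 1.49, 2.2 and 1.81 FPKM in C_O, above all 3 C_W libraries, and the means were 2.14-fold apart (difference 0.62, SE 0.176, limma unadjusted p = 0.0054, adjusted p = 0.908). Col3a1 was at 0.342, 0.509 and 0.687 FPKM in C_O, also without overlap, and 2.76-fold above C_W (limma difference 0.35, SE 0.105, unadjusted p = 0.00785, adjusted p = 0.908). Col1a2 (chr6:4504814-4541544) was at 1.09, 1.63 and 3.25 FPKM in C_O, with the highest value in C_O72, and 2.48-fold above C_W (limma difference 0.67, SE 0.233, unadjusted p = 0.0162, adjusted p = 0.908). Without C_O72 and MS_W95 the difference of Col1a2 was 0.38 and it no longer met the criteria. It also lost its call without C_O72 alone or without C_W64. Col1a1 lost its call without C_W1 or without C_O30, and Col3a1 kept its call in each of the 12 fits that left out 1 library. Without both C_O72 and MS_W95, Col1a1 and Col3a1 were called, against 1.64% of all tested genes.

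Groups did not overlap for 9 of the 38 members, against 9.42% of all tested genes. Of these, 8 were higher in C_O (4.08% of all tested genes) and 1 was lower (5.34%). Besides the 3 named these were Col11a1, Col11a2, Col14a1, Col18a1 and Col4a6, higher in C_O, and Col12a1, lower in C_O. Of the 15 fibroblast markers, 6 were higher in C_O by the criteria, with sums of 40.8, 74.0 and 135 FPKM in C_O15, C_O30 and C_O72 against 34.6 to 45 FPKM in C_W. Without C_O72 and MS_W95 none of the 15 met the criteria. The striatum markers summed to 262, 437 and 133 FPKM in C_O15, C_O30 and C_O72 against 90.8 to 179 FPKM in C_W, and 0 of 8 met the criteria in the fit of 12 libraries but 8 of 8 were higher in C_O without C_O72 and MS_W95, where Col1a1 and Col3a1 were also called. The part of these cells and regions in the collagen levels was not tested.

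The C_O vs. MS_O comparison asks what stress did in mice given krill oil. By the criteria, 3 of the 38 members differed (7.89%), against 3.57% of all tested genes, and all 3 were higher in MS_O (2.82% of all tested genes). None of the members passed the adjusted threshold in limma (smallest adjusted p = 0.479), and none of the 3 had been called between the water groups.

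Col24a1, a fibrillar collagen of bone and cornea (chr3:145292472-145552011), was at 0.416, 0.458 and 0.103 FPKM in C_O and 0.48, 1.71 and 1.93 FPKM in MS_O, a 4.22-fold difference of means (limma difference 0.79, SE 0.27, unadjusted p = 0.0145, adjusted p = 0.479). The lowest MS_O library lay only just above the highest C_O library, and the call was lost without any of C_O72, MS_O46 or MS_O78. Col20a1, a FACIT member (chr2:180986535-181017714), was at 0.433, 0.371 and 0.152 FPKM in C_O and 0.552, 0.707 and 0.919 FPKM in MS_O (limma difference 0.39, SE 0.11, unadjusted p = 0.00519, adjusted p = 0.479). Col7a1, the chain of anchoring fibrils (chr9:108953586-108984875), was at 0.152, 0.113 and 0.0903 FPKM in C_O and 0.158, 0.447 and 0.651 FPKM in MS_O (limma difference 0.33, SE 0.116, unadjusted p = 0.017, adjusted p = 0.479). Neither group pair overlapped, but Col20a1 was not called without C_O72 or without MS_O78, and Col7a1 was not called without MS_O78.

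Col6a1 was 3.69-fold higher on average in MS_O than in C_O and the libraries did not overlap, but the spread kept it outside the criteria (limma difference 1.85, 95% interval -0.04 to 3.73, unadjusted p = 0.0537, adjusted p = 0.567). Without C_O72 and MS_W95 it met them, with a difference of 1.27 (limma unadjusted p = 0.0158, adjusted p = 0.335), together with Col24a1, Col4a5 and Col5a2, while Col20a1 and Col7a1 no longer did (4 members, against 4.28% of all tested genes). Without MS_O78 none of the members was called in this comparison. Groups did not overlap for 4 of the 38 members, all higher in MS_O, against 12.2% of all tested genes in either direction and 8.9% in that one. By the criteria, 1 of 8 hypothalamus and 1 of 15 fibroblast markers were higher in MS_O, and 0 of 8 striatum and 0 of 8 cortex markers differed. Without C_O72 and MS_W95, 2 hypothalamus markers were higher, and 1 hypothalamus and 2 cortex markers were lower. The 10 cartilage and bone markers, of which 8 passed the level limit, summed to 5.61, 5.65 and 14.3 FPKM in C_O15, C_O30 and C_O72. In MS_O13, MS_O46 and MS_O78 they summed to 5.03, 17.5 and 15.0 FPKM. By the criteria 1 of these 8 was higher in MS_O, and without C_O72 and MS_W95 1 was higher and 1 lower. The part of all these markers in the collagen differences was not tested.

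The MS_W vs. MS_O comparison asks what krill oil did under stress, and shares libraries with the comparisons above. Only Col24a1 met the criteria (1 of 38, 2.63%), against 2.81% of all tested genes. Its levels of 0.759, 0.48 and 0.0457 FPKM in MS_W overlapped those of MS_O, and the 3.21-fold difference of means (limma difference 0.70, SE 0.27, unadjusted p = 0.0253, adjusted p = 0.803) was lost without any of MS_W95, MS_O46 or MS_O78. Higher calls made up 1.43% of all tested genes, and without C_O72 and MS_W95 none of the members was called, against 3.36% of all tested genes. Col1a1 and Col3a1 were lower in every MS_O library (1.0, 1.82 and 1.94, and 0.213, 0.463 and 0.331 FPKM) than in every MS_W library, by less than the 2-fold limit. The MS_O mean was 0.668 of the MS_W mean for Col1a1 (limma difference -0.40, SE 0.176, unadjusted p = 0.0445, adjusted p = 0.815) and 0.565 for Col3a1 (difference -0.26, SE 0.105, unadjusted p = 0.034, adjusted p = 0.81). Without C_O72 and MS_W95 the limma differences were -0.37 for Col1a1 (unadjusted p = 0.115) and -0.25 for Col3a1 (unadjusted p = 0.0429). Col20a1 was the only other member without overlap, higher in MS_O, so that 3 of the 38 members were set apart in this way against 12.3% of all tested genes (4.64% higher and 7.66% lower in MS_O). By the criteria, 3 of 8 hypothalamus markers were lower in MS_O, 1 of 15 fibroblast markers was higher, and 0 of 8 striatum and 0 of 8 cortex markers differed. Without C_O72 and MS_W95, 5 of 8 hypothalamus and 2 of 8 striatum markers were lower in MS_O. The cartilage and bone markers summed to 6.14 to 7.86 FPKM in MS_W and 5.03 to 17.5 FPKM in MS_O, and 0 of 8 met the criteria. The part of all these markers in the collagen differences was not tested.

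**Figure D4:**
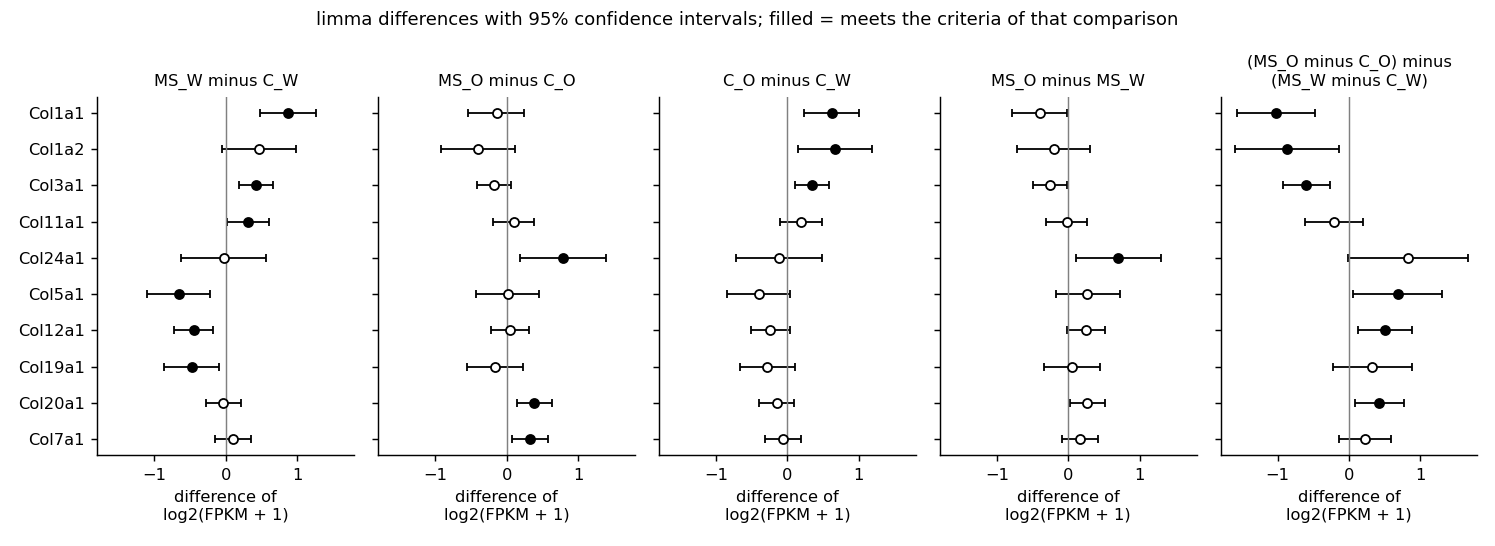
Differences on the log2(FPKM + 1) scale (horizontal axes) of 10 collagen genes (rows) in the 4 comparisons and in the contrast of the stress differences with and without krill oil, with 95% confidence intervals from limma; filled points met the criteria of that panel. For Col1a1 the stress difference was 0.87 with water and -0.14 with krill oil.

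Whether the stress difference depended on krill oil was tested as the contrast of MS_O minus C_O and MS_W minus C_W. Of the 38 members, 6 had an unadjusted p under 0.05 (15.8%), against 7.23% of all tested genes, and none of the 21393 genes passed the adjusted threshold. The contrast was negative in limma for Col1a1 (-1.02, SE 0.249, unadjusted p = 0.00201, adjusted p = 0.507), Col1a2 (-0.87, SE 0.329, unadjusted p = 0.0239) and Col3a1 (-0.60, SE 0.149, unadjusted p = 0.00216, adjusted p = 0.525). It was positive for Col5a1 (0.68, SE 0.283), Col12a1 (0.50, SE 0.172) and Col20a1 (0.42, SE 0.156). The type I and III chains, whose means were lowest in C_W, had stress differences with water and with krill oil of 0.87 and -0.14 for Col1a1, 0.47 and -0.40 for Col1a2, and 0.43 and -0.18 for Col3a1. The contrast tests whether these differences are unequal, and the 95% intervals with krill oil included 0 for Col1a1 (-0.54 to 0.25) and Col3a1 (-0.41 to 0.06). Regional markers gave the same contrast at an unadjusted p under 0.05 for 0 of 8 striatum, 2 of 8 hypothalamus (negative) and 2 of 8 cortex markers (positive). Without C_O72 and MS_W95 it was negative for 8 of 8 striatum and 5 of 8 hypothalamus markers and positive for 2 of 8 cortex markers. Of the 15 fibroblast markers, 14 had a negative contrast in the fit of 12 libraries, with a median of -0.23 against -0.02 over all tested genes. Only 1 of the 15 had an unadjusted p under 0.05, and 0 did without C_O72 and MS_W95. The part of all these markers in the collagen contrast was not tested. In the groups not yet given, Col5a1 was at 1.39, 1.04 and 0.383 FPKM in C_O and 0.972, 0.657 and 1.13 FPKM in MS_O, and Col12a1 at 0.729, 0.885 and 0.569 FPKM in C_O and 1.03, 0.868 and 0.505 FPKM in MS_O. Both pairs of groups overlapped. Col20a1 was at 0.42, 0.577 and 0.383 FPKM in C_W and 0.449, 0.348 and 0.473 FPKM in MS_W, and Col1a2 at 0.839, 1.29 and 1.41 FPKM in MS_O. Col11a1 was at 0.355, 0.633 and 0.361 FPKM in C_O and 0.504, 0.569 and 0.572 FPKM in MS_O, and Col19a1 at 0.902, 0.812 and 0.255 FPKM in C_O and 0.819, 0.294 and 0.321 FPKM in MS_O. Col24a1 was at 0.406, 0.679 and 0.24 FPKM in C_W, and Col7a1 at 0.106, 0.274 and 0.131 FPKM in C_W and 0.291, 0.203 and 0.268 FPKM in MS_W. Without C_O72 and MS_W95, 5 members had an unadjusted p under 0.05, against 7.51% of all tested genes: Col1a1, Col3a1 and Col11a1 with a negative and Col12a1 and Col20a1 with a positive contrast. Col1a1, Col3a1 and Col12a1 kept an unadjusted p under 0.05 in each of the 12 fits that left out 1 library. Col1a2 lost it without C_W64, MS_W95 or MS_O13, Col20a1 without C_W64 or MS_O78, and Col5a1 in 7 of the 12 fits (without C_W64, C_W70, C_O72, MS_W75, MS_W95, MS_O13 or MS_O78).

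The levels of chains that assemble together were then set side by side over the libraries, which share groups and tissue make-up, so that the correlations below are descriptions. Col6a1 and Col6a2, both on chromosome 10, had a Pearson's r of 0.93 and a Spearman's rho of 0.92 over 12 libraries on the log2(FPKM + 1) scale, and 0.91 and 0.87 over the 10 without C_O72 and MS_W95. Col6a3, the other classical chain of type VI collagen, went the other way (r = -0.49 and rho = -0.47 over 12), and the ratio of Col6a1 to Col6a3 ran from 3.65 in C_O72 to 149 in MS_O78. Col1a1 and Col3a1, which lie on different chromosomes, had r = 0.88 and rho = 0.79 over 12 libraries and 0.92 and 0.93 over the 10. Col1a1 and Col1a2 had r = 0.61 and rho = 0.73 over 12 and 0.80 and 0.78 over 10, and the ratio of Col1a1 to Col1a2 was lowest in C_O72 (0.557) and highest in C_W64 (1.93). When the 2 libraries farthest from the median of the first gene of a pair were left out of the 12, r was 0.91 for Col6a1 and Col6a2, -0.40 for Col6a1 and Col6a3, 0.79 for Col1a1 and Col3a1, and 0.56 for Col1a1 and Col1a2.

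**Figure D5:**
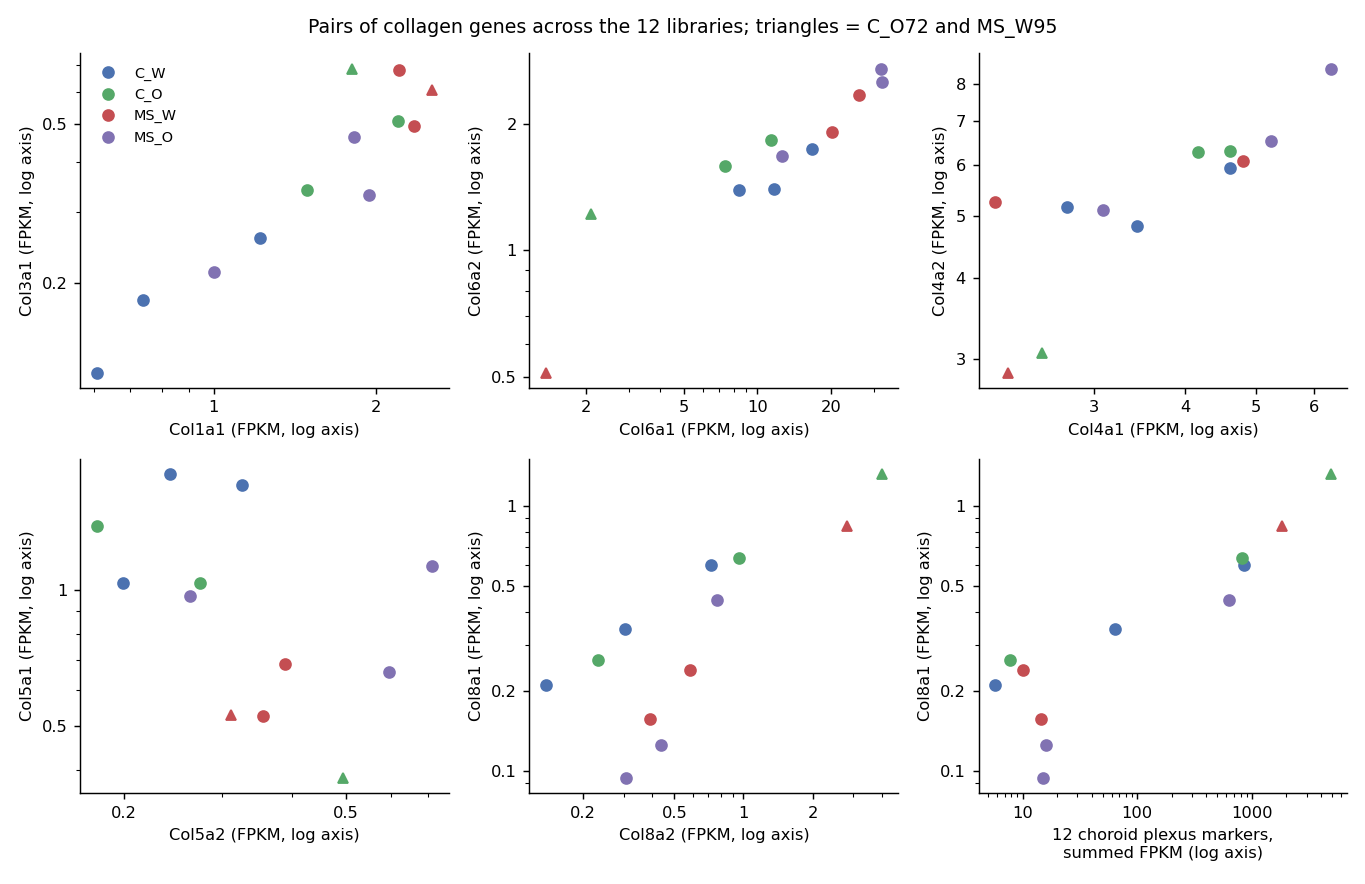
FPKM of pairs of collagen genes in the 12 libraries (log axes), and of Col8a1 against the summed FPKM of 12 choroid plexus markers; points are libraries coloured by group and triangles are C_O72 and MS_W95. Col6a1 and Col6a2 lie along a rising line, Col5a1 and Col5a2 do not, and Col8a1 is highest in the libraries with the most choroid plexus RNA.

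The type IV chain genes are arranged head to head, a layout in which a pair of genes starts from a shared stretch on opposite strands. In the deposited coordinates, Col4a1 (minus strand, starting at chr8:11312826) and Col4a2 (plus strand, starting at 11312805) overlapped by 22 bases, Col4a4 and Col4a3 started 72 bases apart on chromosome 1, and Col4a6 and Col4a5 started 1309 bases apart on the X chromosome. Col4a1 and Col4a2 moved together (r = 0.83 and rho = 0.81 over 12 libraries, 0.85 and 0.78 over 10), r = 0.88 without the 2 libraries farthest from the median of Col4a1, with Col4a2 1.2 to 2.38 times the level of Col4a1. Col4a1 was at 3.44, 4.61 and 2.76 FPKM in C_W, 4.16, 4.6 and 2.55 in C_O, 4.8, 2.2 and 2.29 in MS_W and 3.09, 5.23 and 6.32 in MS_O, with all groups overlapping. Col4a5 and Col4a6 had r = 0.86 and rho = 0.50 over 12 libraries but 0.24 and 0.14 over the 10, since both were highest in C_O72 (0.988 and 0.449 FPKM) and MS_W95 (0.751 and 0.263 FPKM). Col4a5 was at 0.282, 0.211 and 0.267 FPKM in C_W, 0.135, 0.278 and 0.988 in C_O, 0.448, 0.212 and 0.751 in MS_W, and 0.312, 0.439 and 0.493 in MS_O. Col4a6 was at 0.0862, 0.0406 and 0.0873 FPKM in C_W, 0.111, 0.108 and 0.449 in C_O, 0.0944, 0.142 and 0.263 in MS_W, and 0.0657, 0.14 and 0.121 in MS_O. Every C_O and MS_W library of Col4a6 lay above the C_W libraries.

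The type VIII chains Col8a1 and Col8a2, known from the lining membranes of the eye and from vessels, varied with the choroid plexus, the tissue that makes cerebrospinal fluid. Col8a1 was at 1.32 FPKM in C_O72, 0.838 in MS_W95, 0.639 in C_O15, 0.597 in C_W1 and 0.441 in MS_O13, and at 0.094 to 0.344 FPKM in the other 7 libraries. Col8a2 was highest in the same 5 libraries (4.0, 2.83, 0.954, 0.721 and 0.767 FPKM) and at 0.138 to 0.587 FPKM in the others. These 5 libraries also held the most of the 12 choroid plexus markers, which summed to 631 to 4870 FPKM in them and 5.79 to 63.4 FPKM in the others, with Ttr, the defining secreted protein of the choroid plexus, at 612 to 4770 FPKM and 1.88 to 59.8 FPKM. They came from all 4 groups, and Col8a1 and Col8a2 met the criteria in none of the 4 comparisons in limma. DESeq2 called Col8a1 lower in MS_O than in C_O and Col8a2 higher in C_O than in C_W, and limma on median-centred libraries called Col8a1 lower in MS_O than in C_O. The ratio of Col8a2 to Col8a1 was 0.653 to 1.21 in C_W, 0.888 to 3.03 in C_O, 2.44 to 3.38 in MS_W and 1.74 to 3.51 in MS_O.

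The genes that fold, cut, bind and degrade collagen were read from fixed lists. Over all tested genes, the criteria called 2.5% higher and 2.1% lower in MS_W than in C_W. They called 0.865% higher in C_O than in C_W and 2.82% higher in MS_O than in C_O. Of the 20 chain folding and modification genes, all tested, none met the criteria in any of the 4 comparisons, while without C_O72 and MS_W95 P4ha3, a prolyl hydroxylase subunit, was higher in MS_W than in C_W (difference 0.66) and Plod2, a lysyl hydroxylase, was higher in MS_O than in C_O (difference 0.57). Serpinh1, the collagen chaperone, was at 3.97 to 6.65 FPKM in C_W and 6.96 to 11.2 FPKM in MS_W. Such a lack of overlap, higher in MS_W, held for 16.3% of all tested genes. Of 11 tested genes for propeptide processing and crosslinking, Lox, which crosslinks fibrils, was higher in MS_W than in C_W (0.165, 0.0759 and 0.308 against 0.0275, 0.0001 and 0.0366 FPKM, where 0.0001 is the floor of the table; limma difference 0.21, unadjusted p = 0.0159, adjusted p = 0.366). Adamts2, a protease that removes the amino-terminal propeptide, and Pcolce, which enhances removal of the carboxy-terminal one, were higher in C_O than in C_W (limma differences 0.62 and 0.72, unadjusted p = 0.0376 and 0.0372, adjusted p = 0.908 for each), with their highest values in C_O72 (3.2 and 4.85 FPKM), and were not called without C_O72 and MS_W95. That fit instead called the propeptidase Adamts3 higher in MS_W than in C_W (difference 0.77), and, between C_O and MS_O, the lysyl oxidase relative Loxl1 higher in MS_O (0.50) and the protease Tll2 lower (-0.17).

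Of the 20 matrix partners tested, 3 were higher in MS_W than in C_W (15%), against 2.5% of all tested genes. Sparc, a collagen-binding glycoprotein also made by astrocytes, was at 43.0, 32.4 and 32.9 FPKM in C_W and 115, 97.6 and 316 FPKM in MS_W (limma difference 2.06, unadjusted p = 0.0166, adjusted p = 0.371). Lamb1, a laminin chain of basement membranes, was at 1.05, 1.05 and 1.04 FPKM in C_W and 2.0, 2.21 and 2.25 FPKM in MS_W (difference 0.62, unadjusted p = 0.000257, adjusted p = 0.137 in limma). Tnc, the matrix protein tenascin C, was at 0.183 to 0.299 FPKM in C_W and 0.397 to 1.04 FPKM in MS_W (limma difference 0.39, unadjusted p = 0.0343, adjusted p = 0.444) and was not called without C_O72 and MS_W95. Fmod, a fibril-binding proteoglycan, was higher in C_O than in C_W (limma difference 0.99, unadjusted p = 0.0265, adjusted p = 0.908) but not without C_O72 and MS_W95. Postn, the matrix protein periostin, was higher in MS_O than in C_O (limma difference 0.16, unadjusted p = 0.0214, adjusted p = 0.501), and without C_O72 and MS_W95 Tnc was also called there (difference 0.37).

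Of 13 tested genes for collagen breakdown, Mmp14, a membrane-bound collagenase, was higher in MS_W than in C_W (1.76, 1.69 and 2.53 against 1.1, 0.96 and 0.821 FPKM; limma difference 0.60, unadjusted p = 0.0146, adjusted p = 0.36), though not without C_O72 and MS_W95. Fap, a fibroblast surface protease, was lower in MS_W (0.134, 0.052 and 0.237 against 0.414, 0.531 and 0.477 FPKM; limma difference -0.37, unadjusted p = 0.0198, adjusted p = 0.391). In the fit of 12 libraries, none of the 9 tested collagen receptor genes or the 10 genes of transforming growth factor beta signalling met the criteria in any comparison. Among the receptors, the collagen-binding integrin chain Itga11 (difference 0.29) was called higher in MS_W than in C_W without C_O72 and MS_W95. No gene of these 6 lists met the criteria between MS_W and MS_O, and none passed the adjusted threshold in the limma fit of all 12 libraries. Without C_O72 and MS_W95, Sparc passed it between C_W and MS_W (difference 1.54, limma adjusted p = 0.0145).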

How the data were processed

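Poly(A) RNA from 12 mouse brains (4 groups of 3) was sequenced by the authors, with 1 library per mouse. The processing notes name cutadapt 1.9, HISAT2 2.0.4, StringTie 1.3.4d and mm10, and the use of strand in counting was not stated in the sources used here. The deposited table gives FPKM, computed by the authors per gene, with a floor of 0.0001, and estimated counts, which the authors derived from coverage and which are whole numbers in the table. The study's criteria were an unadjusted p under 0.05 and a log2 ratio of group means beyond 1 in either direction.

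Here limma 3.58.1 (R 4.3.3, lmFit and eBayes with trend) was fitted to log2(FPKM + 1) of the 21393 genes with a mean of at least 0.1 FPKM, in 1 fit of the 4 groups, with Benjamini-Hochberg adjustment over all of them. Differences on this scale understate those of low genes. With 3 against 3, a two-sided permutation test cannot go below p = 0.1, so none was used. Alternatives were edgeR 4.0.16 and DESeq2 1.42.0 on estimated counts, other scalings, filters, pseudocounts and designs, and leaving out libraries. The scripts were tested on simulated data. Values in every library were given for members that met the criteria, that were among the 8 highest, that had an unadjusted contrast p under 0.05, or that lie head to head and passed the level limit. Members and gene lists were chosen with earlier results of these data known. A count of glycine repeats in the proteins was planned and not run. A result from the gene lists is not reported here.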

Additional observations from a re-analysis of the deposited data

Results flagged for a closer look

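Krill oil differences of 2 collagen genes pointed in opposite directions without and with stress in every library. For Col1a1 and Col3a1 all 3 C_O libraries lay above all 3 C_W libraries, while all 3 MS_O libraries lay below all 3 MS_W libraries. On the log2(FPKM + 1) scale the differences were 0.62 and -0.40 for Col1a1 and 0.35 and -0.26 for Col3a1. The contrast of both differences, which is the same as that of the stress differences, was -1.02 for Col1a1 (limma, unadjusted p = 0.00201, adjusted p = 0.507) and -0.6 for Col3a1 (unadjusted p = 0.00216, adjusted p = 0.525). Both genes were picked by this pattern among the tested members, and their contrasts were read from the same values. The share of all tested genes with the same pattern was not counted, so these 2 genes cannot be set against a background. Neither contrast passed the adjusted threshold. The same contrast was negative at an unadjusted p under 0.05 for 0 of 8 striatum and 2 of 8 hypothalamus markers, and for 8 and 5 of 8 without C_O72 and MS_W95. For the fibroblast markers it was negative in 14 of 15, but only 1 had an unadjusted p under 0.05, and 0 without C_O72 and MS_W95. The part of all these markers in the result was not tested.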

How the results depend on the processing

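The counts of collagen genes called (6 for C_W vs. MS_W, 3 for C_O vs. MS_O, 3 for C_W vs. C_O, 1 for MS_W vs. MS_O, 6 for the contrast of stress differences) depended on the settings as follows. A mean of at least 1 FPKM, which leaves 12 members, gave 1 for C_W vs. MS_W, 0 for C_O vs. MS_O, 0 for MS_W vs. MS_O and 2 for the contrast. A fold taken from the limma difference, which carries the pseudocount, gave 0 in each of the 4 comparisons. An ordinary linear model with the covariate described above, a sum of log2(FPKM + 1) per library, gave 1, 0, 1 and 0 in that order. It reversed 4 differences between C_W and MS_W: Col5a1 became 1.91, Col12a1 0.34, Col19a1 0.79 and Col11a1 -0.32. The cause was not tested. DESeq2 gave 5 for C_O vs. MS_O and 5 for C_W vs. C_O, and centring libraries on their median gave 5 for C_O vs. MS_O (3 higher and 2 lower, where the main fit had 3 higher). For MS_W vs. MS_O, no level limit gave 2, and fitting only the groups compared, edgeR, and leaving out C_O72 and MS_W95 each gave 0.

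Leaving out 1 library at a time gave 3 (without C_W70) to 6 for C_W vs. MS_W, 0 (without MS_O78) to 7 (without C_O30) for C_O vs. MS_O, 2 to 4 for C_W vs. C_O, 0 (without MS_W95) to 2 for MS_W vs. MS_O, and 3 (without C_W64) to 9 (without MS_W31) for the contrast. No paired analysis was possible because the library numbers differ between the groups. Levels under 1 FPKM, where 26 of the 38 tested members lie, rest on fewer reads than higher levels of genes of the same length, which limits the precision.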
